A study of Mus musculus with 8 samples.

Results

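The 10 genes described here write, copy and erase methylation on the cytosines of CpG dinucleotides. They were the 10 named genes Dnmt1, Dnmt3a, Dnmt3b, Dnmt3l, Uhrf1, Uhrf2, Tet1, Tet2, Tet3 and Tdg, taken from the 37620 genes in the count files by matching Ensembl identifiers to the symbols of the GENCODE annotation of NCBIM37. All 10 were found, and all 10 passed the filter on low counts used below. Bulk RNA-seq counts were analysed in 8 libraries from 5 groups, in order to ask how the transcripts of this machinery differ between signalling conditions of mouse embryonic stem cells (mESCs) and a differentiated cell type. Of the 8 libraries, 7 came from the mESC line R1, and the remaining library came from a line with a GFP reporter of Cdx2. No DNA methylation, 5-hydroxymethylcytosine or protein was measured in these libraries, so every value below is a transcript level.

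Cells of the 2i group were R1 mESCs in serum-containing medium without feeder cells, treated with 3 µM CHIR99021, an inhibitor of GSK3, and 1 µM PD0325901, an inhibitor of MEK, and collected on day 5 (1 library). The 2iJ group was given the same pair with 2.0 µM of a JAK inhibitor and was also collected on day 5 (1 library). The 2iJ+B-A group was given 2iJ with 10 ng/ml BMP4 and 10 µM of an inhibitor of the Activin/Nodal receptor ALK5 and was collected on days 2, 5 and 11 (3 libraries). Cdx2-GFP+ cells were sorted from the reporter line on day 2 of 2iJ+B-A (1 library). Mesoderm progenitors were grown from R1 embryoid bodies in another medium, which contained ascorbic acid and for which no serum was listed, with BMP4, Activin A and Wnt3a, and were collected on days 3 and 4 (2 libraries). According to the methods of the study, the later mesoderm library followed a day of IWP-2, an inhibitor of Wnt secretion, so day and treatment changed together between these libraries. There was 1 library a day in each group, and the days of a group were used as its samples. The spread within 2iJ+B-A and within the mesoderm progenitors therefore includes change with time.

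Total gene counts were 19810855 in the sorted library and between 24532587 and 31453888 in the others. The sorted library stood apart: 29.7% of its read pairs were unmapped, against 2.165% to 3.85% elsewhere, and 27.8% of its uniquely aligned pairs lay outside annotated exons, against 7.83% to 13.2%. The labels were checked against marker genes. All 6 mesoderm markers rose in the mesoderm progenitors. Their summed level was 1540 and 582 CPM on days 3 and 4, and between 14.2 and 58.7 CPM in the 5 unsorted mESC libraries. The mesoderm libraries were unlike each other: T was at 547 CPM on day 3 and 6.30 CPM on day 4, Pou5f1 at 701 and 35.4 CPM, and Kdr at 67.8 and 305 CPM. In the sorted library Cdx2 was at 235 CPM, against 15.0 to 30.1 CPM in 2iJ+B-A, and the trophectoderm keratin gene Krt18 was at 1595 CPM, against 160 to 448 CPM. These were the called genes of 7 trophectoderm markers (edgeR). Krt8, Gata3, Tcfap2c and Elf5 were also at their highest there, Elf5 at only 0.909 CPM, and Eomes was at 2.68 CPM. The summed level of the 7 markers was 3815 CPM in the sorted library. In 2iJ+B-A it was 511, 1200 and 615 CPM on days 2, 5 and 11, against 91.1 in 2i and 121 in 2iJ. In the mesoderm progenitors it was 979 and 341 CPM on days 3 and 4. Eomes, listed for both lineages, was at 393 CPM on day 3 there, and Cdx2 at 40.2 CPM. The summed level of 6 primitive endoderm markers was 29.2, 54.5 and 205 CPM on days 2, 5 and 11 of 2iJ+B-A, against 8.42 in 2i and 13.8 in 2iJ. It was 133 and 356 CPM in the mesoderm progenitors, so neither sum was particular to the mESC libraries. In bulk RNA, a change in the share of a cell type and a change in RNA per cell cannot be told apart.

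DNMT3A and DNMT3B are the de novo methyltransferases, which set methyl groups on unmethylated CpGs, and DNMT3L is a catalytically inactive partner that stimulates them in germ cells and early embryonic cells. DNMT1 copies the pattern onto the new strand after replication, and UHRF1 brings it to hemimethylated DNA. The related UHRF2 binds DNA with similar domains but does not replace UHRF1 in maintenance. TET1, TET2 and TET3 oxidise 5-methylcytosine with iron, oxygen and 2-oxoglutarate, and TDG excises the more oxidised bases so that base excision repair can restore cytosine. Mouse ESCs in 2i are known for low global methylation, and the epiblast after implantation for high Dnmt3b and rapid de novo methylation.

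All 10 are annotated as protein-coding genes, and their positions in NCBIM37 (1-based) are as follows. The maintenance genes are Dnmt1 (ENSMUSG00000004099) at chr9:20711650-20757317 on the minus strand and Uhrf1 (ENSMUSG00000001228) at chr17:56442744-56462909 on the plus strand. The related Uhrf2 (ENSMUSG00000024817) lies at chr19:30105003-30168212 on the plus strand. The de novo genes, all on the plus strand, are Dnmt3a (ENSMUSG00000020661) at chr12:3806007-3914443, Dnmt3b (ENSMUSG00000027478) at chr2:153475186-153513466 and Dnmt3l (ENSMUSG00000000730) at chr10:77504692-77526367. The Tet genes, all on the minus strand, are Tet1 (ENSMUSG00000047146) at chr10:62267318-62361866, Tet2 (ENSMUSG00000040943) at chr3:133126643-133207354 and Tet3 (ENSMUSG00000034832) at chr6:83312367-83391672. Tdg (ENSMUSG00000034674) lies at chr10:82092573-82113544 on the plus strand. Counts were summed over the exons of each gene.

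RefSeq promoter windows were examined first, to describe how many CpGs, the substrate of this machinery, lie at the starts of the 10 genes. A link between the number of CpGs and the variation among libraries was not tested. The reference table held 32851 windows of 27025 genes, each with 250 bases before and 50 bases after an annotated start (GRCm38.p6, whose coordinates differ from those of NCBIM37), and 17 of these windows belonged to the 10 genes. The median window held 7 CpGs, and the quartiles were 3 and 20. The single Tet2 window held 57 CpGs, and 99.9% of all windows held as many or fewer. The single Dnmt3b window held 30, and 89.4% of windows held as many or fewer. The 3 Dnmt3l windows held 6, 4 and 3 CpGs, and 47.9%, 38.0% and 31.4% of windows held as many or fewer. Dnmt3l was the only one of the 10 genes for which every listed start lay in a window with fewer CpGs than the median: Dnmt1 had windows with 2, 12 and 33, Uhrf1 with 12 and 33, and Dnmt3a with 46, 47 and 18. The remaining windows held 28 (Uhrf2), 17 (Tet1), 22 (Tet3) and 26 (Tdg). Counts per gene cannot tell which start was used. The windows of Dnmt3l, Dnmt3b and Tet2 are printed below because these genes had the largest fold changes in the mesoderm progenitors. The sequences run 5′ to 3′ on the strand of the gene, and the capitals mark CpG dinucleotides.
Dnmt3l, start 1, chr10:78042037-78042336, plus strand: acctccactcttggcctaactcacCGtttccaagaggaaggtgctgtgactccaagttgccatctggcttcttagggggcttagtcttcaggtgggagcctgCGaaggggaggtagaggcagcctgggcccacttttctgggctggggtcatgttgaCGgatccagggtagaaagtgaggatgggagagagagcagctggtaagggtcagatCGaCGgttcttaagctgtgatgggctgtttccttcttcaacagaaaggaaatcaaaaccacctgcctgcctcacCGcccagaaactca
Dnmt3l, start 2, chr10:78049592-78049891, plus strand: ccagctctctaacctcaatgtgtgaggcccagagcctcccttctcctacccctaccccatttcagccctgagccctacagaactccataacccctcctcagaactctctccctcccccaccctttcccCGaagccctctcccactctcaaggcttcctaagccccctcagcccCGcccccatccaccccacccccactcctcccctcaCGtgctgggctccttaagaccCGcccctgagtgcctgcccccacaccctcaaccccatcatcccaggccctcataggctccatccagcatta
Dnmt3l, start 3, chr10:78055085-78055384, plus strand: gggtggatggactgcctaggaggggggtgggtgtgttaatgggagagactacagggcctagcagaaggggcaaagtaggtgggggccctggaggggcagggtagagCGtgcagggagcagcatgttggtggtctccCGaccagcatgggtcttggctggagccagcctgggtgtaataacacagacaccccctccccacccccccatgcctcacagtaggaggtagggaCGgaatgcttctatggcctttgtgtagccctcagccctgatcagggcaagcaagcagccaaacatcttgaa
Dnmt3b, chr2:153649199-153649498, plus strand: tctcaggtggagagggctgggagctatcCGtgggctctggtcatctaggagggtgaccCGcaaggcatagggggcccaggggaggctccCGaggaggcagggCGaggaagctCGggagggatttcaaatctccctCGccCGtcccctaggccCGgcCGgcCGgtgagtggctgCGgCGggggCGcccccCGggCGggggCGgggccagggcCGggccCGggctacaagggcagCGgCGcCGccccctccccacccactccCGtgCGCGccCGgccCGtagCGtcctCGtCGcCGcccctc
Tet2, chr3:133544341-133544640, minus strand: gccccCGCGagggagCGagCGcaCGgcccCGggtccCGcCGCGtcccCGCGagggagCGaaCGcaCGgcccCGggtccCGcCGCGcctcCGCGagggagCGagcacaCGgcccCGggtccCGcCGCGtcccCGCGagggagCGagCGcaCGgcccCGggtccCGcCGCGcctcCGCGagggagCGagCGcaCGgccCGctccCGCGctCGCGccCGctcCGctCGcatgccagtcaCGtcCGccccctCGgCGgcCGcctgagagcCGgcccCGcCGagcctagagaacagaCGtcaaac
The capitals are scattered in the Dnmt3l windows and dense in the Tet2 window. Which of these CpGs were methylated in the cells was not measured.

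Levels of the 10 genes spanned a wide range, and the maintenance genes Dnmt1 and Uhrf1 varied least. Levels are given as CPM, which scales the reverse-strand count of a gene to the total over genes in its library, and comparisons between genes use CPM per kilobase (kb) of annotated exon. Averaged over the 3 libraries of 2iJ+B-A, Uhrf1 was highest at 101 ± 20.0 CPM per kb (SD, n = 3), followed by Dnmt1 at 73.7 ± 9.07, Dnmt3l at 54.0 ± 27.1 and Dnmt3b at 28.7 ± 13.5. Tet2 (16.4 ± 5.27), Uhrf2 (14.3 ± 1.62) and Tet1 (13.8 ± 2.92) came next, then Dnmt3a (7.30 ± 0.770), Tdg (4.14 ± 0.314) and Tet3 (3.24 ± 1.23). In that order, the ranges of neighbours overlapped except between Tet1 and Dnmt3a and between Dnmt3a and Tdg. Across all 8 libraries the highest CPM of a gene was 1.81 times the lowest for Dnmt1 and 1.82 times for Uhrf1, but 26.0 times for Tet2 and 208 times for Dnmt3l. Of the genes tested, 15.2% had a smaller spread (SD of log2 CPM over the 8 libraries) than Dnmt1 and 99.3% had a smaller spread than Dnmt3l. The plot of levels by library shows this contrast between the nearly flat Dnmt1 and Uhrf1 and the genes that vary.

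**Figure D1:**
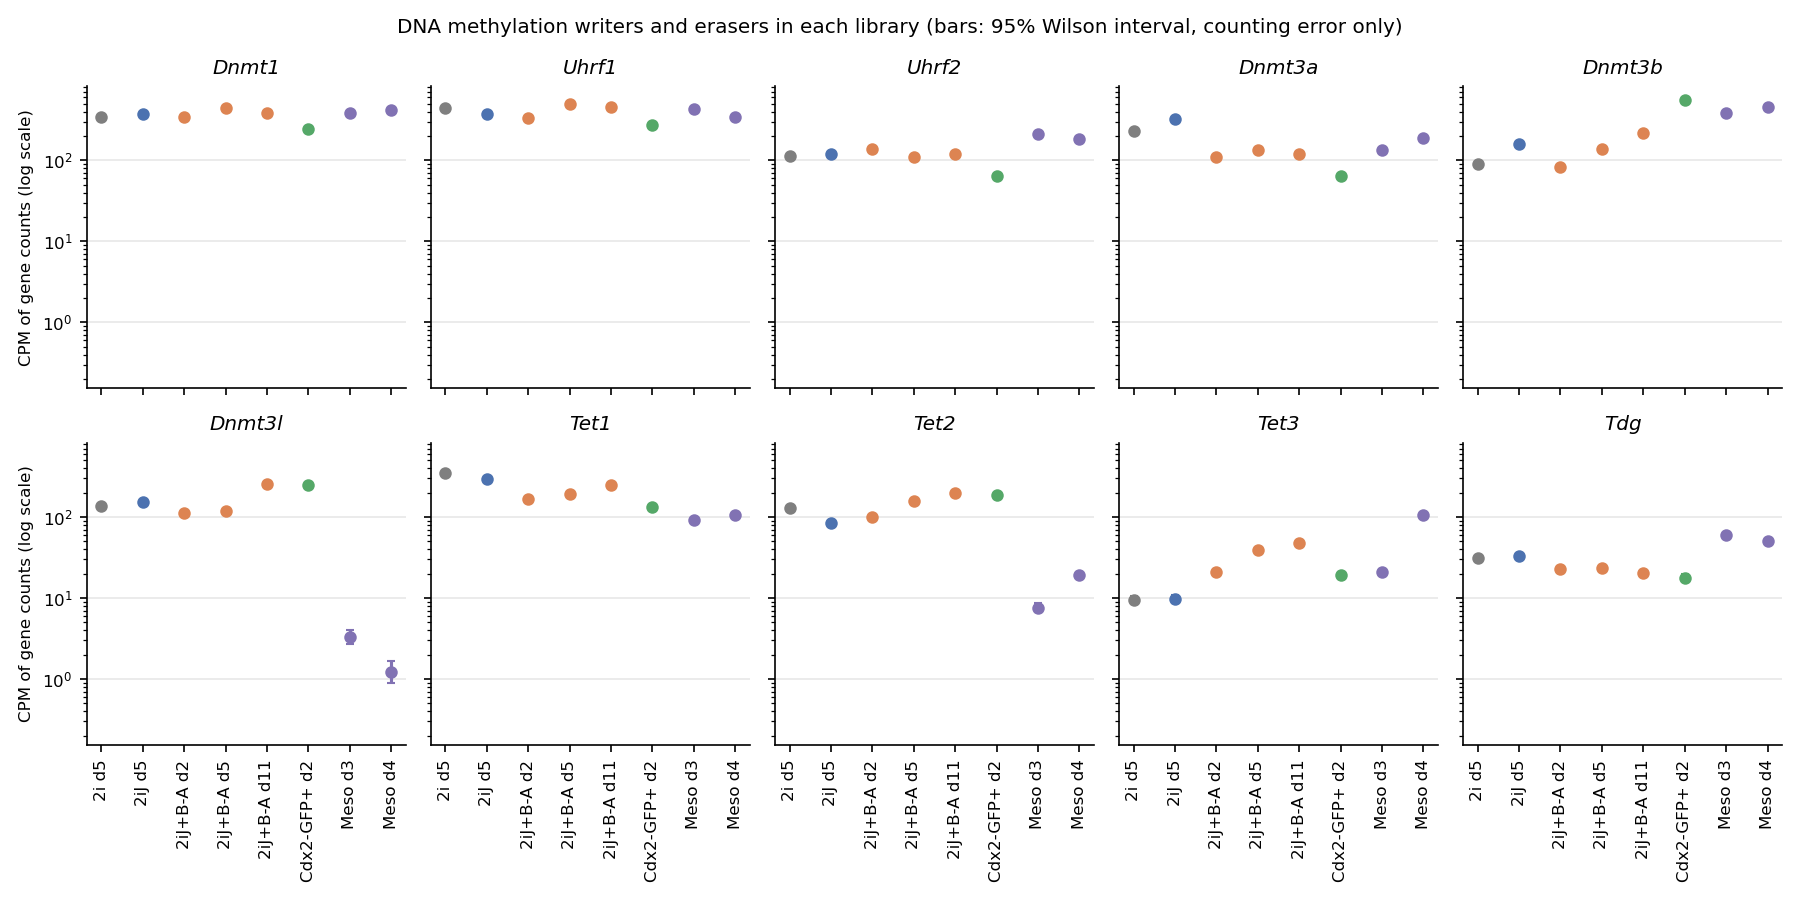
Level of each of the 10 genes in the 8 libraries, in CPM of reverse-strand gene counts on a log axis (1 point per library, coloured by group; bars are 95% Wilson intervals for counting error). Dnmt1 and Uhrf1 are nearly flat, Dnmt3l falls to 3.27 and 1.23 CPM in the mesoderm progenitors, and Dnmt3b has its 3 highest points in the sorted and mesoderm libraries.

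Mesoderm progenitors were compared with 2iJ+B-A to ask how the machinery differs between a differentiated lineage and mESCs under the signals studied. Of the 10 genes, 6 changed: Dnmt3b, Uhrf2 and Tdg rose, and Dnmt3l, Tet1 and Tet2 fell (edgeR quasi-likelihood test with all 8 libraries, Benjamini-Hochberg adjusted p-values up to 0.028). This comparison was broad, with 27.0% of the 16961 genes tested changed, 11.5% higher and 15.5% lower. Without the day 5 library in 2iJ+B-A, 3 of the 10 genes and 2019 of all genes were called, and without day 11, 5 and 2666. The median log2 fold change of the 10 genes was 0.24, and that of all genes tested was -0.03. The plot of fold changes shows the size and the error of each difference.

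**Figure D2:**
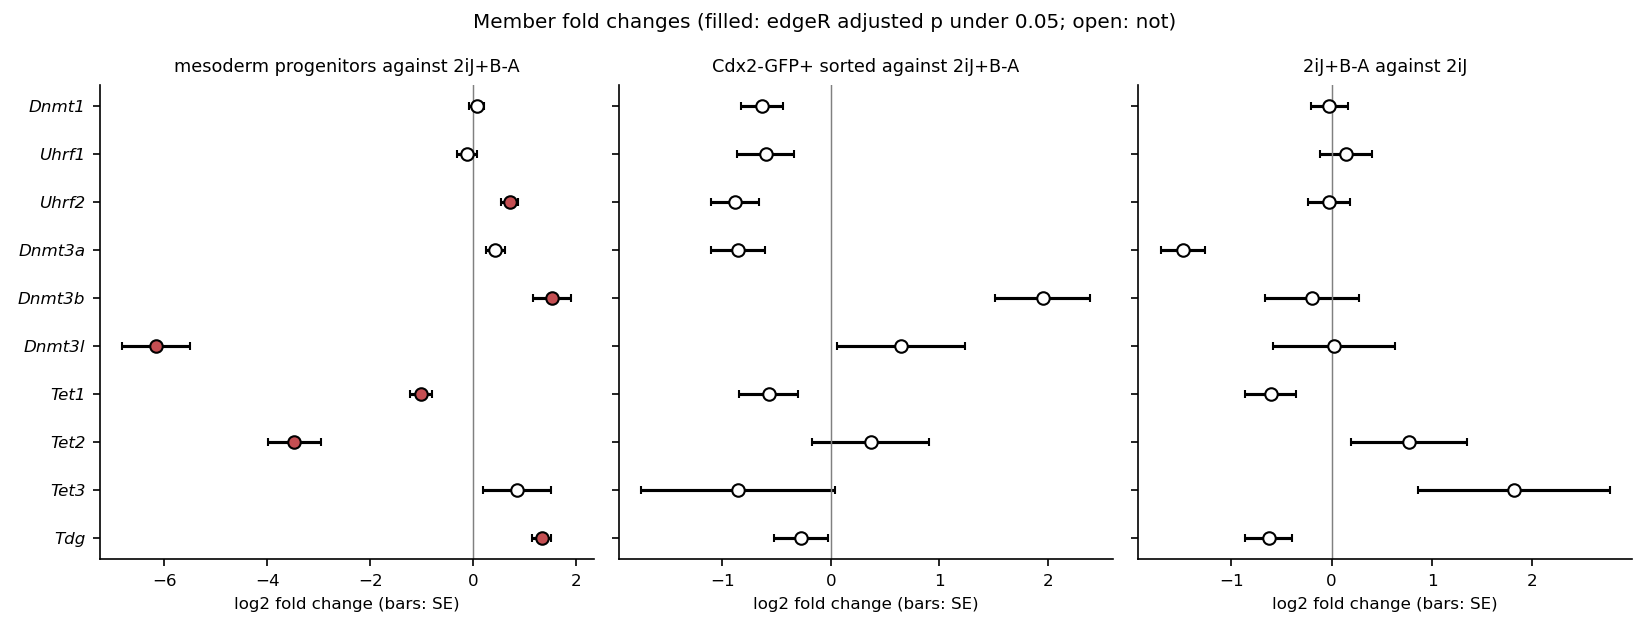
Log2 fold change of each gene (horizontal axis; bars are standard errors) in the 3 comparisons tested, 1 panel each, with filled points where the edgeR adjusted p-value was under 0.05. In the mesoderm panel 3 genes lie to the right and 3 to the left as filled points, from Dnmt3l at -6.15 to Dnmt3b at 1.53, and the other panels hold no filled point.

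Among the de novo enzymes, the catalytic Dnmt3b and its partner Dnmt3l moved in opposite directions. Dnmt3b was at 382 and 457 CPM in the mesoderm progenitors on days 3 and 4, and at 83.3, 137 and 220 CPM in 2iJ+B-A on days 2, 5 and 11. It was at 89.5 CPM in 2i and 161 CPM in 2iJ, so both mesoderm values lay above all 5 unsorted mESC libraries. The log2 fold change against 2iJ+B-A was 1.53 ± 0.37 (SE, adjusted p = 0.028, edgeR), a 2.89-fold rise. This call was lost when day 5 of 2iJ+B-A was left out (adjusted p = 0.089) and without the day 4 mesoderm library (adjusted p = 0.074). Dnmt3l was at 3.27 and 1.23 CPM in the mesoderm progenitors (103 and 38 counts), and at 112, 117 and 255 CPM in 2iJ+B-A. It was at 135 CPM in 2i and 152 CPM in 2iJ, so the groups were far apart. The log2 fold change was -6.15 ± 0.66 (adjusted p = 0.0029, edgeR), which makes the level 71.2-fold lower, and the call was kept in all 12 alternatives run. Dnmt3l shares 67 exon bases with Aire, a gene on the opposite strand that had 3 and 8 counts in the mesoderm progenitors. The reverse-strand counts used here separate the 2 genes by strand.

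Dnmt3a, the other catalytic de novo enzyme, was not called. It was at 136 and 186 CPM in the mesoderm progenitors and at 110, 135 and 119 CPM in 2iJ+B-A. Both mesoderm values lay above those of 2iJ+B-A, the lower one only just, with a log2 fold change of 0.42 ± 0.18 (adjusted p = 0.14, edgeR). Its values in 2i (230 CPM) and 2iJ (325 CPM) were higher than in the mesoderm progenitors. With all 5 unsorted mESC libraries as the reference, the fold change was -0.22, so its sign depends on which mESC condition is the reference.

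Expressed per kb, the 3 Dnmt3 genes took different shares of their summed level. In 2iJ+B-A Dnmt3l made up 59.3% ± 5.64 of the sum, Dnmt3b 31.6% ± 4.64 and Dnmt3a 9.05% ± 3.27 (SD, n = 3). In 2i the shares were 59.0%, 22.9% and 18.1%, and in 2iJ 49.9%, 30.9% and 19.2%, in the same order. In the mesoderm progenitors Dnmt3b made up 89.0% on day 3 and 88.5% on day 4, and Dnmt3l 1.30% and 0.406%. The sum itself was 84.1 and 101 CPM per kb in the mesoderm progenitors, within the range of 60.5 to 136 CPM per kb over the 5 unsorted mESC libraries. A similar summed level was thus made up of different members, with Dnmt3b in place of Dnmt3l as the leading transcript. These shares depend on the length used for Dnmt3a, whose 18 annotated transcripts span 16642 exon bases in total and at most 9685 bases in any one of them. With the longest transcript Dnmt3a (20.0%) came before Dnmt3b (17.5%) in 2i.

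**Figure D3:**
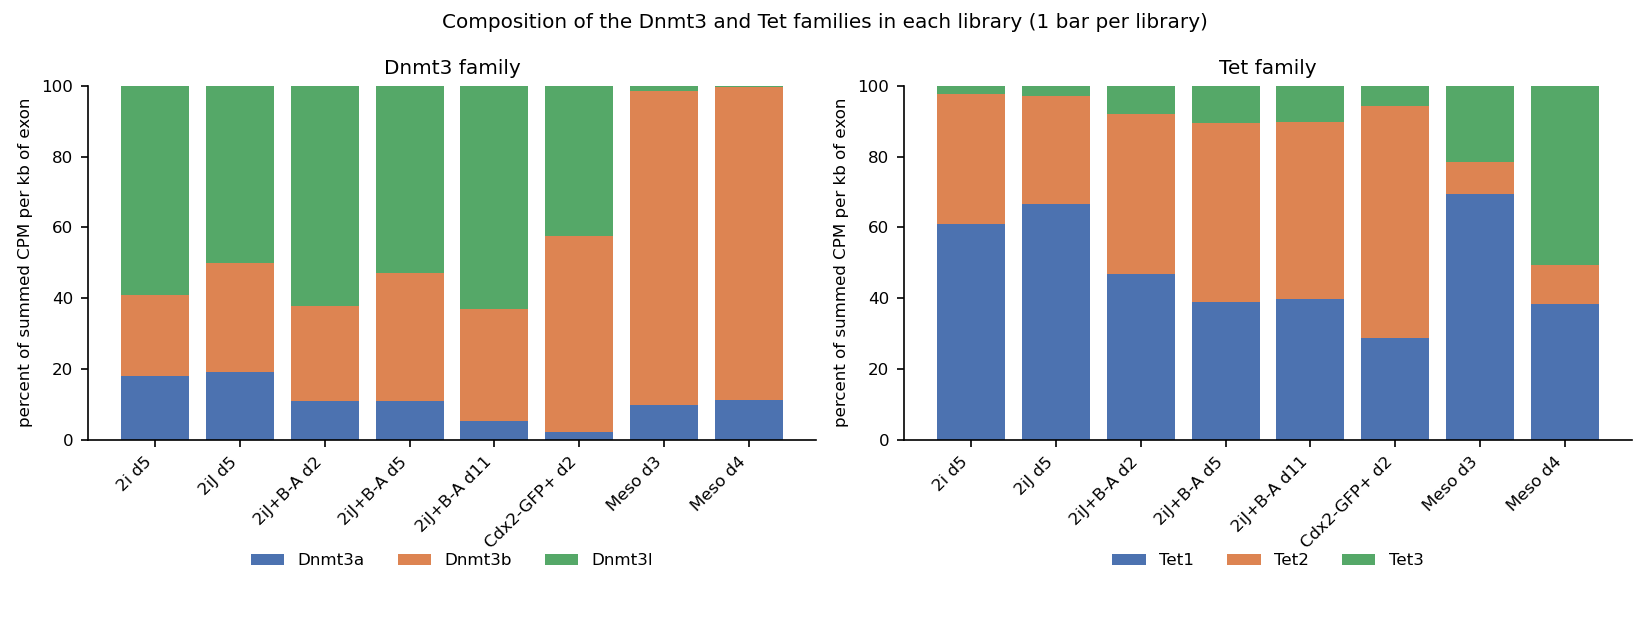
Share of each member in the summed level of the Dnmt3 family (left) and the Tet family (right), in percent of CPM per kb of exon, with 1 stacked bar per library. Dnmt3b fills 89.0% and 88.5% of the Dnmt3 bars of the mesoderm progenitors, and the Tet3 part of the Tet bars is 21.4% on day 3 and 50.6% on day 4 of the mesoderm progenitors, against 2.21% in 2i.

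Dnmt1 and Uhrf1 were at similar levels in the mesoderm and the unsorted mESC libraries, whereas Uhrf2 was higher in the mesoderm progenitors. Dnmt1 was at 390 and 415 CPM in the mesoderm progenitors and at 341, 437 and 386 CPM in 2iJ+B-A, with a log2 fold change of 0.07 ± 0.15 (adjusted p = 0.78, edgeR). Uhrf1 was at 433 and 348 CPM against 334, 497 and 460 CPM, with a log2 fold change of -0.13 ± 0.20 (adjusted p = 0.68, edgeR). The mesoderm values of both genes lay inside the range of 2iJ+B-A, and the sign of each difference turned when single libraries were left out. Uhrf2 was at 211 and 186 CPM in the mesoderm progenitors, against 137, 109 and 121 CPM in 2iJ+B-A, 112 CPM in 2i and 119 CPM in 2iJ. Both mesoderm values were above all mESC values, by a log2 fold change of 0.70 ± 0.16 against 2iJ+B-A (adjusted p = 0.024, edgeR). The call on Uhrf2 was lost without the day 5 library (adjusted p = 0.086) or the day 11 library (adjusted p = 0.072) of 2iJ+B-A, and without the day 3 mesoderm library (adjusted p = 0.059).

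Tet1 and Tet2 fell, whereas Tet3 differed between the mesoderm libraries. Tet1, the most abundant Tet transcript in 2i and 2iJ, was at 91.3 and 106 CPM in the mesoderm progenitors and at 165, 194 and 249 CPM in 2iJ+B-A. Both mesoderm values were below all 5 unsorted mESC values, which reached 347 CPM in 2i. The log2 fold change against 2iJ+B-A was -1.02 ± 0.21 (adjusted p = 0.018, edgeR), and the call was lost when day 5 of 2iJ+B-A was left out (adjusted p = 0.057) and without the day 3 mesoderm library (adjusted p = 0.062). Tet2 was at 7.54 and 19.2 CPM in the mesoderm progenitors, against 99.6, 157 and 196 CPM in 2iJ+B-A and 84.6 CPM in its lowest mESC library, 2iJ. Its log2 fold change was -3.48 ± 0.51 (adjusted p = 0.0066, edgeR), an 11.1-fold lower level, and this call was kept in all 12 alternatives.

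Tet3, the member known best from the zygote and from neural cells, was at 21.1 CPM on day 3 and 106 CPM on day 4 of the mesoderm progenitors. The day 3 value lay at the lower end of 2iJ+B-A (21.0, 38.7 and 47.9 CPM) and the day 4 value above it. The pooled log2 fold change was 0.85 ± 0.66 (adjusted p = 0.38, edgeR). It was 1.64 without the day 3 library (adjusted p = 0.031), and it was -0.71 without the day 4 library, so the pooled value describes neither library. The composition of the Tet family followed: Tet3 made up 21.4% of the summed CPM per kb on day 3 and 50.6% on day 4, where it was the leading Tet transcript. The summed Tet level was 8.93 and 18.9 CPM per kb in the mesoderm progenitors, and between 23.9 and 42.6 CPM per kb in the 5 unsorted mESC libraries.

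Tdg, the glycosylase downstream of the TET enzymes, rose while Tet1 and Tet2 fell. It was at 60.4 and 50.6 CPM in the mesoderm progenitors, against 22.5, 23.8 and 20.4 CPM in 2iJ+B-A, 31.2 CPM in 2i and 32.9 CPM in 2iJ. The mesoderm values were above every other library, by a log2 fold change of 1.33 ± 0.19 against 2iJ+B-A (adjusted p = 0.0060, edgeR), and the call was kept in all 12 alternatives. Of 6 pluripotency markers, Pou5f1 (701 CPM) and Nanog (153 CPM) were still present on day 3 of the mesoderm progenitors. Sox2 (21.6 CPM), Klf4 (7.85 CPM), Esrrb (6.20 CPM) and Zfp42 (10.6 CPM) were low there. All 6 were lower in that library than in any unsorted mESC library. Dnmt3l was at 3.27 CPM and Tet2 at 7.54 CPM in it, and the part of pluripotent cells in the values of the 10 genes was not tested.

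Between days 3 and 4 of the mesoderm progenitors, with 1 library each and no test, 3 of the 10 genes differed by at least 1.5-fold, against 39.6% of all genes tested. Tet3 was 5.01 times as high on day 4 (95% counting interval 4.61 to 5.46) and Tet2 2.55 times as high (2.19 to 2.98). Dnmt3l was at 0.375 times its day 3 level (0.251 to 0.549). The other 7 genes lay between 0.803 times for Uhrf1 and 1.37 times for Dnmt3a. These intervals cover counting error only and say nothing of how cultures differ.

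Sorted Cdx2-GFP+ cells of the reporter line were compared with the unsorted R1 cultures of 2iJ+B-A, to describe Cdx2-positive cells under the same signals. None of the 10 genes passed the test (edgeR, lowest adjusted p = 0.056), against 5.42% of all genes tested, and 4 of them had an unadjusted p under 0.05, against 27.0% of all genes. DESeq2 called 4 of them, Dnmt3b higher and Dnmt1, Dnmt3a and Uhrf2 lower, and 15.7% of all genes. With a single sorted library, the spread in this test came from the other groups. The reporter line, the sorting and the alignment of the library differed together with the group and cannot be told apart from it. The number of genes called ran from 27 to 2665 over the alternatives, against 919 in the test as given, and it fell to 91, 37 and 117 without day 2, day 5 or day 11 of 2iJ+B-A. This comparison shares its 3 reference libraries with the one above.

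Dnmt3b had its highest level of all in the sorted library, 550 CPM, against 83.3 CPM in the unsorted culture of the same day and 220 CPM at most in 2iJ+B-A. Its log2 fold change was 1.96 ± 0.44 (adjusted p = 0.056, edgeR). The adjusted p was under 0.05 in 8 of 12 alternatives, but not without day 2 or without day 5 of 2iJ+B-A. The log2 fold change ran from 1.68 without day 2 to 2.77 when 2iJ+B-A was compared at day 2 with a slope on log2(day). Unlike in the mesoderm progenitors, Dnmt3l was high in the sorted cells as well, at 245 CPM against 112 to 255 CPM in 2iJ+B-A (log2 fold change 0.65 ± 0.59, adjusted p = 0.51, edgeR). The summed Dnmt3 level was 193 CPM per kb, above the 60.5 to 136 CPM per kb of the unsorted mESC libraries, with 55.6% from Dnmt3b, 42.4% from Dnmt3l and 2.01% from Dnmt3a. With the length of the longest transcript the order of the leading pair turned, with 50.1% from Dnmt3l and 47.4% from Dnmt3b. Dnmt3a was lowest here, at 64.6 CPM against 110 to 135 CPM in 2iJ+B-A (log2 fold change -0.86 ± 0.25, adjusted p = 0.092, edgeR), and its adjusted p was under 0.05 in 5 of 12 alternatives.

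The maintenance genes Dnmt1 and Uhrf1 had their lowest values in the sorted library. Dnmt1 was at 241 CPM (log2 fold change -0.63 ± 0.19, adjusted p = 0.10, edgeR) and Uhrf1 at 273 CPM (log2 fold change -0.60 ± 0.26, adjusted p = 0.20, edgeR). Uhrf2 was at 64.2 CPM, less than in any other library (log2 fold change -0.89 ± 0.22, adjusted p = 0.068, edgeR). Transcripts of DNA replication moved the same way. All 14 genes of an S phase and proliferation list had a negative fold change in the sorted library. Their median log2 fold change was -0.72, against -0.08 over all genes tested. Of the 14, 2 (Mcm5 and Mcm3) were called, against 5.42% of all genes tested. The summed level of the list was 2876 CPM in the sorted cells and 4992 to 5158 CPM in 2iJ+B-A, and the part of proliferation in the values of Dnmt1 and Uhrf1 was not tested.

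Within the Tet family of the sorted cells, Tet2 was the leading transcript and Tet3 the lowest. Tet2 was at 188 CPM, inside the 2iJ+B-A range of 99.6 to 196 CPM (log2 fold change 0.37 ± 0.54, adjusted p = 0.70, edgeR). It made up 65.7% of the summed Tet level per kb, its largest share in any library, against 48.6% ± 2.96 in 2iJ+B-A. Tet1 was at 131 CPM (log2 fold change -0.57 ± 0.27, adjusted p = 0.23, edgeR), Tet3 at 19.1 CPM and Tdg at 17.8 CPM, each below all 3 libraries of 2iJ+B-A. The counting interval of Tet3 (17.3 to 21.2 CPM) overlapped that of day 2 (19.3 to 22.9), and the interval of Tdg (16.0 to 19.7 CPM) that of day 11 (18.9 to 22.1). In 2i and 2iJ Tet3 was lower than in the sorted library, at 9.45 and 9.73 CPM. All 4 fibroblast markers were at their highest in the sorted library, and their summed level was 87.5 CPM there and 6.54 to 12.1 CPM in 2iJ+B-A. Col1a1 was at 42.1 CPM and Postn at 11.4 CPM. The study's methods describe the R1 cultures as free of feeder cells, but the sorted library came from the reporter line. The part of fibroblasts in the sorted values was not tested.

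The effect of BMP4 with the ALK5 inhibitor was read from 2iJ+B-A against 2iJ. The 2iJ group was a single library, so the spread in this test came from the groups with more than 1. No gene of all those tested passed the threshold (0.0%), with 1290 (7.61%) at an unadjusted p under 0.05, so none of the 10 genes was called. DESeq2 called 309 genes (1.82%), Dnmt3a among them. The trophectoderm and primitive endoderm markers summed above were higher in 2iJ+B-A than in 2iJ on every day, and their part in the values of the 10 genes was not tested. Dnmt3a was at 110, 135 and 119 CPM in 2iJ+B-A and at 325 CPM in 2iJ. The 3 values with BMP4 and the ALK5 inhibitor lay close together and below both 2iJ and 2i (230 CPM). The log2 fold change was -1.49 ± 0.22 (edgeR unadjusted p = 0.00038, adjusted p = 0.25), which makes the level 2.80-fold lower. With DESeq2 the adjusted p was 8.0e-05, and with 2i and 2iJ pooled as the reference the log2 fold change was -1.26 (adjusted p = 0.042, edgeR). Over the 13 alternatives the adjusted p ran from 8.0e-05 to 1.0, and 2 of them called the gene.

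Among the erasers, Tet1 was at 165, 194 and 249 CPM in 2iJ+B-A, below its 295 CPM in 2iJ and 347 CPM in 2i (log2 fold change -0.61 ± 0.25 against 2iJ, adjusted p = 0.66, edgeR). Tet3 moved the other way, from 9.73 CPM in 2iJ and 9.45 CPM in 2i to 21.0, 38.7 and 47.9 CPM in 2iJ+B-A (log2 fold change 1.82 ± 0.95, adjusted p = 0.75, edgeR). Tdg was at 22.5, 23.8 and 20.4 CPM against 32.9 CPM in 2iJ (log2 fold change -0.63 ± 0.23, adjusted p = 0.61, edgeR). Tet2 was at 84.6 CPM in 2iJ and at 99.6 CPM or more in 2iJ+B-A (log2 fold change 0.77 ± 0.58, adjusted p = 0.84, edgeR). The shares within the family shifted accordingly, with Tet1 at 66.6% of the summed CPM per kb in 2iJ and 41.9% ± 4.30 in 2iJ+B-A. Dnmt1, Dnmt3b, Dnmt3l, Uhrf1 and Uhrf2 had log2 fold changes between -0.20 and 0.14 and standard errors between 0.19 and 0.61. For Dnmt3b the pooled value covers 83.3, 137 and 220 CPM on days 2, 5 and 11, against 161 CPM on day 5 of 2iJ.

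Within 2iJ+B-A, 5 of the 10 genes were at least 1.5-fold higher on day 11 than on day 2 and none was as much lower, against 36.3% of all genes tested that differed by as much in either direction. Dnmt3b was 2.64 times as high (95% counting interval 2.51 to 2.77), Tet3 2.28 times (2.06 to 2.52), Dnmt3l 2.27 times (2.173 to 2.37), Tet2 1.97 times (1.88 to 2.06) and Tet1 1.51 times (1.46 to 1.57). Dnmt3b, Tet1, Tet2 and Tet3 were higher at each later day. Dnmt3l was nearly level from day 2 (112 CPM) to day 5 (117 CPM) and was at 255 CPM on day 11. Dnmt3a (1.08 times) and Tdg (0.907 times) differed little between days 2 and 11. There was 1 library a day, and primitive endoderm markers, among them Gata4 at 72.8 CPM and Sox17 at 24.1 CPM, were also at their highest for this condition on day 11. Their part in the values of the 10 genes was not tested.

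The addition of the JAK inhibitor to 2i was seen in 1 library against 1, with no test. Of the 10 genes, 2 differed by at least 1.5-fold, against 20.1% of all genes tested. Dnmt3b was 1.80 times as high in 2iJ (95% counting interval 1.71 to 1.89) and Tet2 was at 0.648 times its level in 2i (0.615 to 0.684). Dnmt3a was 1.41 times as high in 2iJ (1.37 to 1.46). The ratios of the other 7 genes lay between 0.849 for Uhrf1 and 1.13 for Dnmt3l.

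Genes that act with these enzymes were followed as 7 lists, shown in the plot of pathway lists. The counts below for the mesoderm progenitors stand beside the 27.0% of all genes tested that changed in that comparison, and the lists of repair, reader, metabolism and S phase genes were near or below it. Of 7 maintenance partners, 3 changed. The PCNA-associated factor PAF15, listed as 2810417H13Rik, whose ubiquitinated form is bound by DNMT1, rose by a log2 fold change of 2.53 ± 0.41 (adjusted p = 0.0088, edgeR). It was at 236 and 222 CPM in the mesoderm progenitors, 23.2 to 63.3 CPM in the unsorted mESC libraries and 1.56 CPM in the sorted library, where its log2 fold change was -4.62 ± 0.74 (adjusted p = 0.029, edgeR). Usp7, the deubiquitinase bound to DNMT1 and UHRF1, fell by 0.80 on the log2 scale (adjusted p = 0.017, edgeR), and Zbtb24 fell by 0.81 (adjusted p = 0.045). Of 17 genes of base excision and repair, 1 rose and 3 fell, a share below that of all genes. Apex1, the endonuclease that acts after TDG, rose (log2 fold change 0.52 ± 0.13, adjusted p = 0.028, edgeR), and Parp1 (-0.81) and the deaminase Apobec1 (-2.92) fell. Of 7 methyl-CpG readers, Zbtb33, which encodes Kaiso, rose (log2 fold change 1.04 ± 0.19, adjusted p = 0.012, edgeR) and the other 6 were not called.

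**Figure D4:**
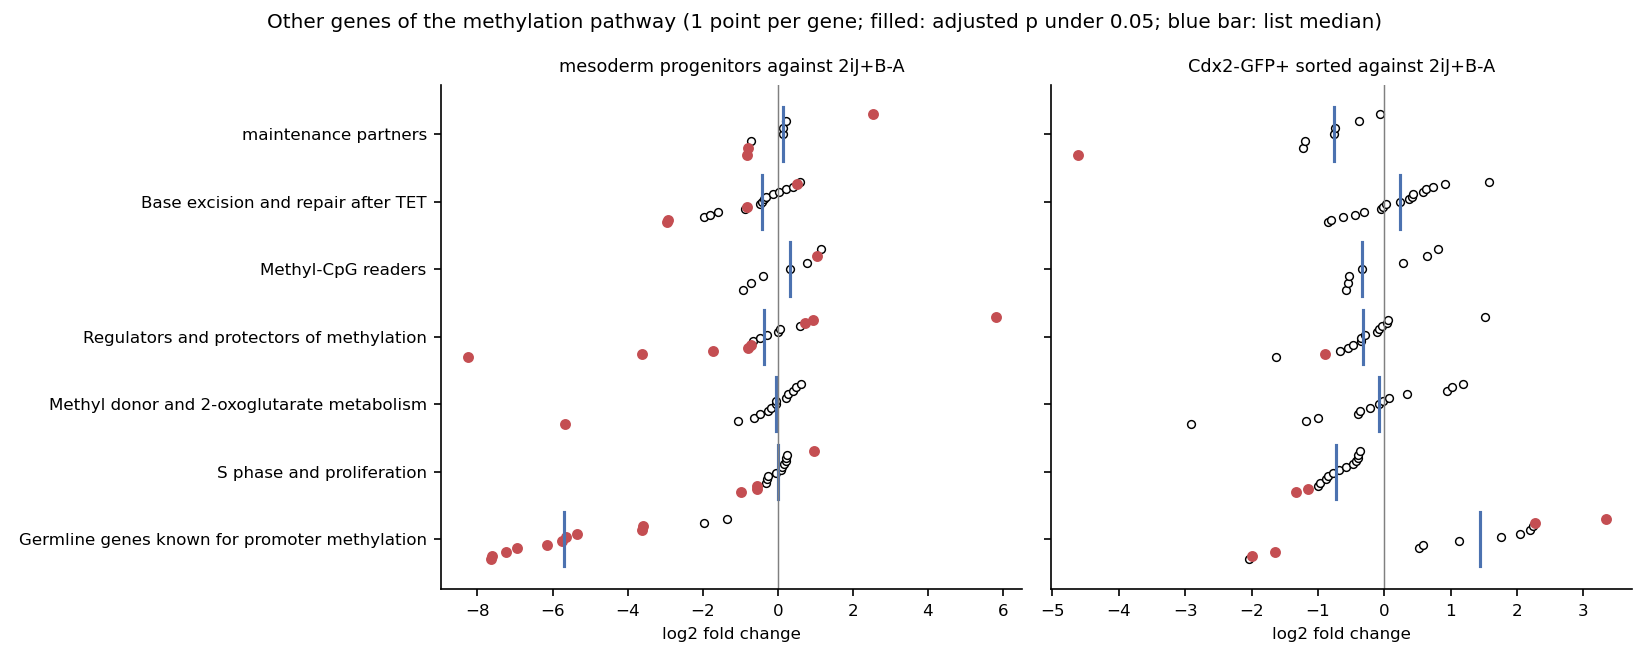
Log2 fold changes of the genes in 7 lists around the methylation machinery, for mesoderm progenitors (left) and sorted Cdx2-GFP+ cells (right) against 2iJ+B-A, with 1 point per gene (filled where the edgeR adjusted p-value was under 0.05) and a blue bar at the list median. The germline genes lie far to the left for the mesoderm progenitors, with a median of -5.70, and mostly to the right for the sorted cells, with a median of 1.44.

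Regulators of the enzymes and genes that shield sites from them changed in both directions. Of 14 genes, 3 rose and 5 fell in the mesoderm progenitors. Dppa3 (Stella), which shields the maternal genome from TET3 and displaces UHRF1, was at 0.0318 and 0.258 CPM there (1 of these below the floor of 3 counts, or 0.0954 CPM) and at 91.3, 22.0 and 23.9 CPM in 2iJ+B-A. Prdm14, which represses Dnmt3b and Dnmt3l in mESCs, was at 3.82 and 0.743 CPM against 26.7 to 31.6 CPM (log2 fold change -3.63 ± 0.67, adjusted p = 0.013, edgeR). Zfp57, which protects methylation at imprinted regions with TRIM28, fell by 1.72 on the log2 scale. Cxxc4, which binds TET2 and is known to promote its degradation, was at 1.69 CPM on day 3, 30.0 CPM on day 4 and at most 0.445 CPM in the other 6 libraries. Of 13 tested genes of methyl donor and 2-oxoglutarate metabolism, only Tdh, a threonine catabolic enzyme of mESCs, changed. It fell (log2 fold change -5.67 ± 1.13, adjusted p = 0.016, edgeR). Its levels were low in both groups, at 2.53, 5.63 and 7.23 CPM in 2iJ+B-A and 0.191 and 0.0 CPM in the mesoderm progenitors. In the S phase list Mki67 rose and E2f1, Mcm3 and Mcm6 fell, out of 14 genes.

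Germline genes that are known to be silenced by promoter methylation were low in the mesoderm progenitors, and in the sorted cells they went both ways. Of the 12 genes, 10 fell in the mesoderm progenitors and none rose, with a median log2 fold change of -5.70 against -0.03 over all genes tested. Rpl10l (-7.63), Dazl (-7.60), Hormad1 (-7.24) and Tuba3a (-6.14) fell most among those named by the rule used, each with an edgeR adjusted p of at most 0.0067. The summed level of the list was 16.3 and 4.91 CPM in the mesoderm progenitors and between 238 and 308 CPM in the 5 unsorted mESC libraries. In the sorted cells 2 of the 12 rose and 2 fell, against 5.42% of all genes tested that were called in that comparison. Tex101 (log2 fold change 3.34 ± 0.63, adjusted p = 0.040, edgeR) and the synaptonemal complex gene Sycp1 (2.27 ± 0.46, adjusted p = 0.046, edgeR) rose, whereas Dazl (-1.99 ± 0.39, adjusted p = 0.044, edgeR) and Rpl10l (-1.65 ± 0.31, adjusted p = 0.039, edgeR) fell. Outside this list, the sorted cells had 1 call among 7 maintenance partners and 1 among 14 regulators (Ctcf, log2 fold change -0.89). The S phase list of 14 genes had 2. These small counts stand beside the same 5.42% of all genes tested. No list gene was called in 2iJ+B-A against 2iJ.

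The genes whose profile over the 8 libraries was closest to each changed member were named by the root mean square difference of centred log2 CPM, among 10612 other protein-coding genes with a mean of at least 5 CPM. For Dnmt3l these were Gm53 (difference 0.317), the folate receptor gene Folr1 (0.332) and Pip5k1b (0.353). The median over all genes compared was 2.81 for Dnmt3l, close to the SD of its own profile (2.755), so it mostly describes how much Dnmt3l varies. That median was 0.602 for Uhrf2 and 0.685 for Tdg. For Tet2 the closest was the pluripotency factor gene Klf4 (0.253), at 7.85 and 14.2 CPM in the mesoderm progenitors and 209 CPM in the sorted library, followed by Slc25a20 (0.351) and Cd55 (0.353). For Dnmt3b they were Igsf9 (0.356), Itgb5 (0.384) and Plxnb2 (0.407). Tet1 was nearest to 8430419L09Rik (0.156), Kif20b (0.166) and D14Abb1e (0.180). Tdg was nearest to the arginine methyltransferase gene Carm1 (0.101), Tkt (0.118) and Hnrpll (0.125), and Uhrf2 to Adk (0.0904), Fam164a (0.105) and Ado (0.109). All profiles share the same 8 libraries, and these differences are a description.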

How the data were processed

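Strand-specific poly-A libraries were sequenced as 126-base read pairs. Per the labels and the submitters' processing notes, the authors trimmed with cutadapt through TrimGalore and aligned to NCBIM37 with STAR 2.4.2a. The deposited files hold counts that are not normalized, 1 row per gene, in 3 columns (unstranded, forward and reverse). They carry none of the batch adjustment that the study applied between experiments run on different dates. Reverse-strand counts were used here, as the library kit requires. The release of the authors' annotation is not given in the sources used here. GENCODE vM1 named 37205 of 37620 identifiers. Strand counting keeps antisense partners apart, and the opposite-strand share of the 10 genes was 0.962% to 5.96%, against 5.03% to 6.47% per library. Transcript isoforms cannot be told apart.

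All 8 libraries were fitted in edgeR 4.0.16 (R 4.3.3) with a coefficient for each of the 5 groups, TMM scaling and the quasi-likelihood test, over the 16961 genes that reached 10 counts in 2 libraries or more. Residual degrees of freedom were 3 and the common biological coefficient of variation was 0.363. P-values were Benjamini-Hochberg adjusted over all genes tested, with a threshold of 0.05. The standard error is the log2 fold change over the square root of F. Nothing in the labels ties a group's libraries to separate cultures beyond their days, so p-values measure the spread between these samples. CPM has 95% Wilson intervals and a floor of 3 counts (0.0954 to 0.151 CPM). Ratios of single libraries have exact conditional binomial intervals. Intervals and floors cover counting error only. Scripts were tested on simulated data with known changes.

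The 10 members, the lists and the rules were chosen with earlier results of these data known. Named list genes were up to 4 a list and comparison with the largest absolute log2 fold change among those with an adjusted p under 0.05 and 5 CPM or more on average in the group with the higher level. Neighbours are the 3 nearest genes by profile. Marker lists are given as sums or counts, not by this rule. Single markers and Aire were named after their values were seen, and the result of 1 gene is not reported here. Alternatives were unstranded counts, DESeq2 1.42.0 size factors and Wald test, no filter, other sets of groups and leaving out each library of the replicated groups. Gene positions are those of NCBIM37. The promoter windows are RefSeq sequences on GRCm38.p6, matched by symbol for all 10 genes.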

Additional observations from a re-analysis of the deposited data

How the results depend on the processing

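In mesoderm progenitors against 2iJ+B-A, Dnmt3l, Tet2 and Tdg kept their direction and call in all 12 alternatives. Leaving out 1 library at a time gave 3 to 6 called members and 2019 to 4538 called genes, and Dnmt3b, Uhrf2 and Tet1 each lost the call in 2 or 3 of these settings. Over the same settings the log2 fold change ran from -0.0073 to 0.18 for Dnmt1, from -0.27 to 0.059 for Uhrf1 and from -0.71 to 1.64 for Tet3. With all 5 unsorted mESC libraries as the reference, Dnmt3a was at -0.22. Without the day 3 mesoderm library, Tet3 and Dnmt3a passed the threshold, at adjusted p = 0.031 and 0.033 (edgeR).

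In sorted cells against 2iJ+B-A, 1390 genes were called with no filter, 2665 with the DESeq2 Wald test, 1911 with only the groups compared, 2033 without the mesoderm progenitors and 27 with a slope on log2(day). The members called were 1, 4, 2, 2 and 1, in that order. Leaving out 1 library gave 37 to 2052 genes and 0 to 2 members. No member changed direction.

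In 2iJ+B-A against 2iJ, the DESeq2 Wald test called 309 genes and 1 member, and 2i and 2iJ pooled as the reference gave 150 genes and 1 member, in each case Dnmt3a. With the pooled reference Dnmt1 was at 0.029, Dnmt3b at 0.16 and Uhrf2 at 0.014. Leaving out 1 library moved Dnmt1 between -0.099 and 0.048, Dnmt3b between -0.62 and 0.078, Dnmt3l between -0.48 and 0.22 and Uhrf2 between -0.13 and 0.068. The cause of these moves was not tested. Without the sorted library, an alternative chosen after seeing the data, no result crossed the threshold or turned sign.

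Mean CPM under TMM scaling moved by less than 1 SD for every member in 2iJ+B-A and the mesoderm progenitors. Family shares from unscaled CPM were 30.2% for Dnmt3a, 36.6% for Dnmt3l, 52.7% for Tet1 and 38.3% for Tet2 in 2iJ+B-A, and 27.5% for Dnmt3a, 72.1% for Dnmt3b and 7.29% for Tet2 in the mesoderm progenitors. With the length of the longest transcript, also chosen after seeing the data, Dnmt3b made up 24.9% in 2iJ+B-A and 84.5% in the mesoderm progenitors, and Dnmt3a 14.4% there. No paired analysis was possible because the replicate numbers only name the days of a group. The lowest count behind a member was 38 (Dnmt3l), so depth limits no member.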
